A study of Mus musculus with 16 samples.

Results

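Ribosome biogenesis and the assembly of small nucleolar ribonucleoprotein particles (snoRNPs) were followed through 51 mouse genes in T cell acute lymphoblastic leukaemia (T-ALL). The genes were chosen by function, as a list of symbols, with earlier results of these data known. All 51 matched a row among the 41214 gene rows of the count tables. They cover RNA polymerase I transcription (4 genes), nucleolar organisation (6), box C/D snoRNP proteins (4), box H/ACA snoRNP proteins (4), snoRNP assembly factors (4), maturation of the small ribosomal subunit (17) and of the large subunit (12). All 51 passed the filter on low counts, which 17470 genes passed, and the smallest count of any of them in a library was 251 (Znhit6).

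RNA sequencing was done on leukaemias of 16 C57Bl6 mice, 1 library per mouse, in 8 groups of 2. With ICN, an activated form of Notch that drives T-ALL, and wild-type p53 there were 3 groups: Miz1 wt, deltaPOZ with the suffix Lck, and deltaPOZ with the suffix Vav. The same 3 groups were made with ICN and p53 ko, and p53 ko leukaemias without ICN were either Miz1 wt or deltaPOZ Vav. Miz1 is a zinc finger transcription factor that binds Myc, and deltaPOZ is a Miz1 protein that lacks its POZ domain, through which it oligomerises. Lck and Vav stand in the titles of the deltaPOZ mice, and the labels do not explain them or say whether Miz1 wt mice carry the same driver. No group without leukaemia and no group without ICN on wild-type p53 is among the samples, with organ, age and sex of the mice not given in the sources used here. Mice were separate animals, so each p-value below sets a difference or slope against the spread between mice. For the slopes on Myc fitted without a term for genotype, that spread includes differences between groups.

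Ribosome production starts in the nucleolus, where RNA polymerase I transcribes the precursor of the large ribosomal RNAs. Box C/D snoRNPs guide ribose methylation and box H/ACA snoRNPs guide pseudouridylation of that precursor, and assembly factors then fold and cut it into the small and large subunits. In lymphoid and other tumours many of these genes are known targets of Myc, which binds the sequence CACGTG (the E-box) and raises cell growth.

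The E-boxes next to the start sites of the genes are shown first because the genes are read against Myc below. RefSeq promoter windows on GRCm38.p6, 250 bases before to 50 bases after a start site, were found for 47 of the 51 genes, not for Npm1, Fbl, Bop1 and Rrp12. Searched as CACGTG, which reads the same on both strands, the motif lay in a window of 11 of the 47 genes (23.4%) and of 2187 of 27025 genes in the whole table (8.09%). Before the start site it lay in 3 of 47 (6.38%) against 6.86% of all genes. After or across the start it lay in 8 of 47 (17.0%) against 1.55%. These shares of all genes cover the whole table, not only genes past the filter on low counts, which all 47 passed. The capitals mark the motif, each line is written 5′ to 3′ on the strand of the gene, and Rrn3 has the motif at both of its lines.
Rrn3, chr16:13780472-13780501, plus strand: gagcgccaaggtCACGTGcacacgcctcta
Rrn3, chr16:13780639-13780668, plus strand: ttacgctctgctCACGTGggccgcgtcccg
Nop2, chr6:125131811-125131840, plus strand: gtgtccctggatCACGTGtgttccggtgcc
Imp4, chr1:34439696-34439725, plus strand: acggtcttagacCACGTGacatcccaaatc
Pes1, chr11:3963965-3963994, plus strand: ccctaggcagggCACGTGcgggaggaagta
Utp4, chr8:106893643-106893672, plus strand: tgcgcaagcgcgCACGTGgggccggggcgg
Wdr43, chr17:71616220-71616249, plus strand: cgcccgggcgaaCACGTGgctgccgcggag
Tsr1, chr11:74898092-74898121, plus strand: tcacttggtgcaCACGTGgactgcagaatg
Ltv1, chr10:13193092-13193121, minus strand: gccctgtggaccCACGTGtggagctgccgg
Utp20, chr10:88826765-88826789, minus strand: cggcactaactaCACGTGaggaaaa
Pno1, chr11:17211540-17211564, minus strand: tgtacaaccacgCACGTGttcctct
Mybbp1a, chr11:72441355-72441376, plus strand: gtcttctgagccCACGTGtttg
A match to these letters is a description of the window and not a measured binding site, and the 4 genes outside the table and the 36 without a match are described by their expression alone. Of the 56 windows of these genes, 46 (82.1%) read on into a transcript of the GENCODE M21 annotation. Among the genes printed above, the windows of Nop2, Imp4, Pno1 and Mybbp1a did not.

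The libraries held 36463524 to 68523196 gene counts (median 50170000). Levels are CPM, the counts scaled to library size with TMM factors. Of 13 T cell markers, Cd3e lay at 67.2 to 178.7 CPM and all 13 were above 0 in every library. The 12 ICN libraries also held erythroid RNA (sum of 9 markers 4868 to 26210 CPM, against 6.98 to 44.6 CPM without ICN), neutrophil RNA (sum of 10 markers 50.5 to 9078 against 0.502 to 1.44 CPM) and B cell RNA (sum of 10 markers 193.3 to 1472 against 61.3 to 374.8 CPM). Macrophage markers (10) summed to 122.5 to 1491 CPM with ICN and to 109.3 to 327.2 CPM without. Markers at 0 in some libraries included the erythroid gene Slc4a1 and the B cell gene Fcer2a, each in 1 library, and neutrophil genes at 0 in 3 libraries (Prtn3), in 2 (Elane, Camp and Ngp) or in 1 (Mpo, Ltf, Cebpe and Ly6g). In such bulk samples, fewer cells of a type and less RNA per cell cannot be told apart. Trp53 was at least 70.2 CPM in each p53 wt library, while the p53 ko libraries ranged from 7.33 to 30.6 CPM. Zbtb17, which encodes Miz1, lay at 38.02 to 137.8 CPM over all 16, and counts over the whole gene do not check the deltaPOZ label.

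A single library stood apart in these genes, and the counts and medians that it moves are given with and without it. In replicate 1 of the ICN Miz1 wt p53 ko group all 51 genes lay below their own mean over 16 libraries, by 0.72 on the log2 scale on average, and 36 of the 51 had their lowest level of all there. Over all 17470 genes tested, 48.7% lay below their own mean in that library and the median deviation was 0.02. The other mouse of the group, replicate 2, lay at 0.07 with 36 genes above their mean. Replicate 1 had 18.96 CPM of Myc, against 65.8 to 159.1 CPM in the other 15 libraries. It also had the fewest gene counts and the largest share of alignments that were not unique (63.7%, against 45.8% to 56.2% elsewhere), and its neutrophil marker sum was 3727 CPM, against 50.5 CPM in replicate 2 and 9078 and 6501 CPM in both Lck p53 ko libraries. The 14 cell cycle genes measured beside them (Mki67, Top2a, the Mcm genes and others) deviated by only -0.02 there. The part of depth, of alignment and of other cells in the low levels was not tested.

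**Figure D1:**
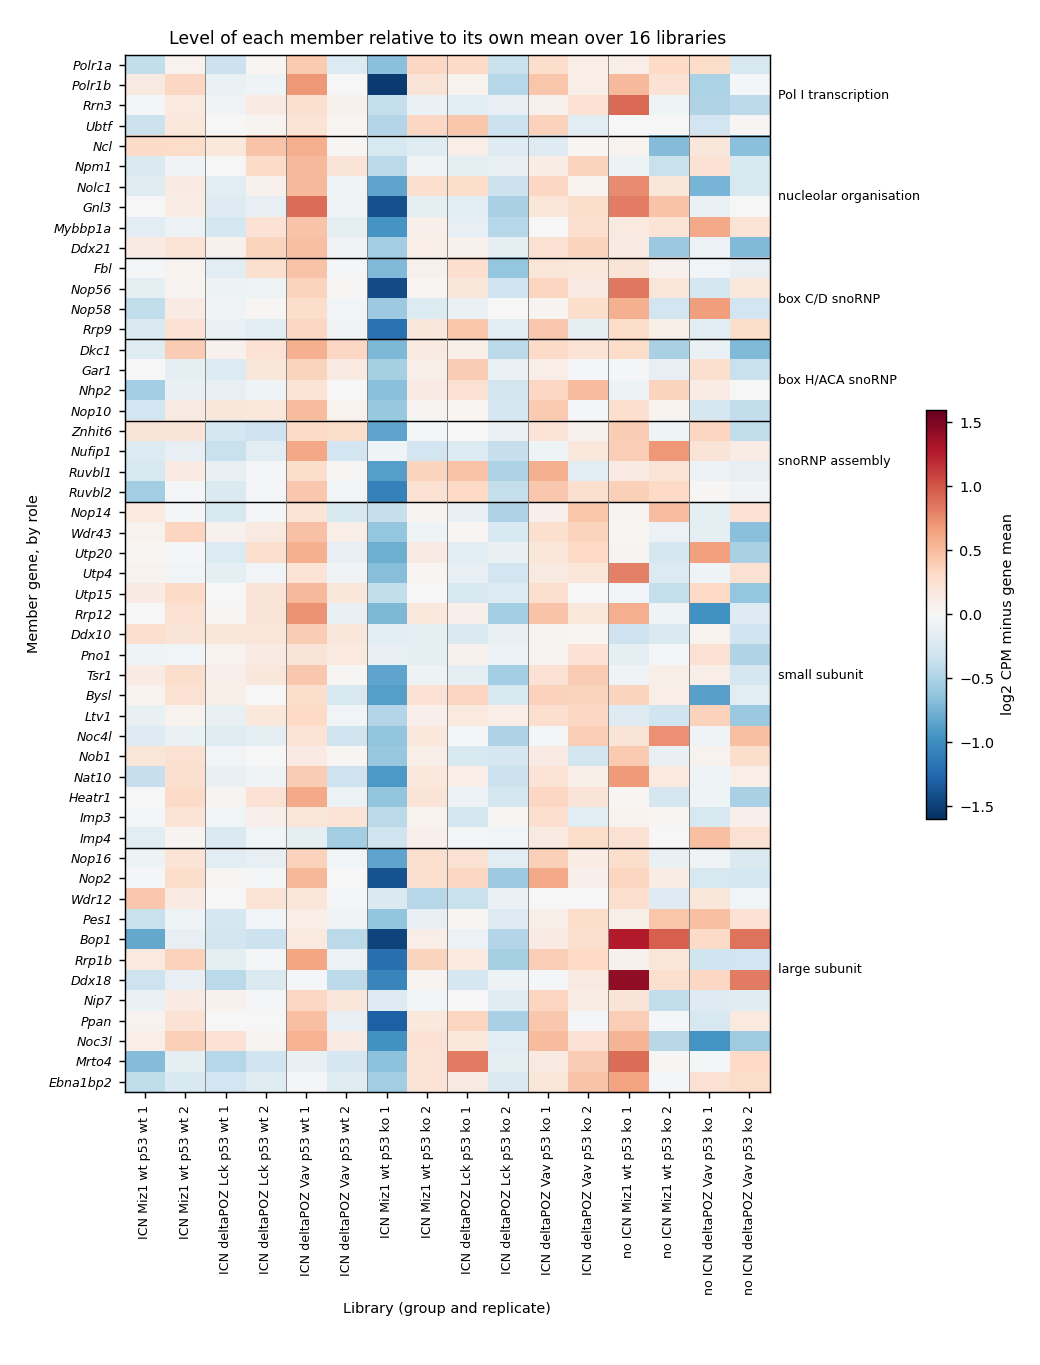
Log2 CPM of each of the 51 genes (rows, grouped by role) in each of 16 libraries (columns), minus the mean of that gene over the libraries. Blue is below and red above the gene's mean. Replicate 1 of ICN Miz1 wt p53 ko is blue in all 51 rows, and replicate 1 of ICN deltaPOZ Vav p53 wt is above the mean in 47.

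The next lowest library was replicate 2 of ICN deltaPOZ Lck p53 ko, with a mean deviation of -0.28 and 48 genes below their mean. The highest were replicate 1 of ICN deltaPOZ Vav p53 wt (0.37, 47 genes above) and replicate 1 of no ICN Miz1 wt (0.32, 43 genes above). Between them these 2 libraries held the highest level of 30 of the 51 genes, 19 in the first and 11 in the second. High and low libraries thus came from different groups, and each of these 4 libraries had a partner of the same group much closer to the mean (from -0.05 to 0.07). The plot of deviations by gene and library shows the columns side by side.

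The roles did not follow these libraries to the same degree. In the low library box C/D proteins lay lowest (-0.98) and small subunit factors least low (-0.56), with large subunit factors at -0.88, Pol I genes at -0.76, nucleolar genes at -0.74, assembly factors at -0.72 and box H/ACA proteins at -0.63. In the high Vav p53 wt library nucleolar genes lay highest (0.57) and large subunit factors lowest (0.26). In the high library without ICN the order differed, with large subunit factors at 0.54 and box H/ACA proteins at 0.11. Another 106 genes of ribosome biogenesis deviated the same way in these libraries but less, by -0.43, 0.23 and 0.20.

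Levels of different genes were set side by side per kilobase of exon, with all annotated exons of a gene merged. That length can exceed the length of the transcript expressed, so the order depends on the annotation as well as on the level. Ncl, for example, had 10188 bases and a median of 950.7 CPM, and Nhp2 had 1146 bases and 107.6 CPM. On this scale Npm1 was the highest of the 51 with a median of 488.2 CPM per kb over 16 libraries. Npm1 encodes nucleophosmin, an abundant nucleolar chaperone. Nhp2, a box H/ACA core protein, followed at 93.9 CPM per kb, and Ncl, which encodes nucleolin, at 93.3 CPM per kb. Lowest were Znhit6, a box C/D assembly factor, at 4.85 CPM per kb, Rrp1b, a nucleolar factor of the large subunit, at 9.45, and Gar1, a box H/ACA protein, at 10.52. The 4 proteins of the H/ACA core, which assemble into 1 particle, thus spanned from 10.52 (Gar1) over 51.3 (Dkc1, the pseudouridine synthase) and 83.1 (Nop10) to 93.9 CPM per kb. The core C/D proteins lay at 15.5 (Fbl, the methyltransferase), 31.3 (Nop58) and 74.01 CPM per kb (Nop56). Near-identical pseudogenes (at least 95% identity over 300 bases) were found for 9 of the 51, among them Npm1 (4), Pes1, Ddx18 and Mrto4 (2 each) and Wdr12 (1), and the levels of these genes are uncertain because reads shared with a copy are not counted. Exons of 19 of the 51 overlap a gene on the other strand, among them Bop1 (Mroh1), Gnl3 (Pbrm1), Tsr1 (Srr) and Wdr12 (Carf), and their reads can be told apart only where counting used the strand.

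Over the 16 libraries the ratio of the highest to the lowest level ran from 1.63 (Imp3) to 6.74 (Bop1). Imp3, a protein of the U3 particle, lay between 42.1 and 68.4 CPM, and Bop1, which acts with Pes1 and Wdr12 on the large subunit, between 41.8 and 281.9 CPM. To show which genes moved with the rest, each gene's log2 CPM was correlated with the mean of the other 50 over 16 libraries, as a description, since the libraries share scaling and groups. Pearson's r was highest for Nop2 (0.94), a methyltransferase of large subunit RNA, Nop16 (0.93), Polr1b (0.92) and Gnl3 (0.92), which encodes nucleostemin. It was lowest for Ddx10 (0.21), a helicase of the small subunit, Wdr12 (0.28), Pno1 (0.32), which works with the nuclease Nob1, and Ncl (0.32). Over the 11 ICN libraries without the low one, r for Nop2, Nop16, Polr1b and Gnl3 was 0.88, 0.85, 0.89 and 0.86, and that for Ddx10, Wdr12, Pno1 and Ncl was 0.26, 0.02, 0.49 and 0.30. Wdr12 encodes a protein that forms a complex with those of Pes1 and Bop1, for which r over 16 libraries was 0.59 and 0.64.

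The genes were then read against Myc among the 12 ICN leukaemias, by the slope of each gene on log2 CPM of Myc. This fit and its alternatives had no term for genotype unless stated, so differences between groups enter the slope. The slope was positive for all 51, with a median of 0.30 log2 units per log2 unit of Myc, against a median of 0.005 over the 16805 genes tested. None passed an adjusted p under 0.05 (edgeR quasi-likelihood F test, Benjamini-Hochberg over all genes), where 0.0476% of all genes did, 8 in all and all with negative slopes. At an unadjusted p under 0.05 there were 37 of the 51, all positive, against 18.4% of all genes, 9.49% with a positive slope and 8.91% with a negative one. DESeq2, run as an alternative, called 26 of the 51, where it called 6.8% of all genes. Without the low library 41 slopes were positive, the median was 0.15, 1 gene had an unadjusted p under 0.05, and no gene of the 17526 tested passed by edgeR. DESeq2 without that library, a fit chosen after seeing the data, called none of the 51, where it called 0.856% of all genes. The count of calls also moved with other mice: on leaving out replicate 1 of the Miz1 wt pair with ICN and p53 wt, 19 of the 51 passed by edgeR, where 3.63% of all genes did. The 2 libraries farthest from the median in Myc were the low library and that same replicate 1 of the p53 wt pair. The latter had 130.5 CPM of Myc, the most of the ICN libraries, and a mean deviation of -0.11. Without both, 50 slopes were positive with a median of 0.40, 7 had an unadjusted p under 0.05, and none of the 17395 genes tested passed by edgeR. For the fits without the low library and without both libraries, shares of all genes at that unadjusted threshold are not given. Their counts of 1 and 7 thus cannot be read as high or low. With all 12 libraries and the genotype groups as a factor, only Wdr12 (-0.02), Nufip1 (-0.02) and Pno1 (-0.005) had negative slopes. The lowest adjusted p of the 51 was then 0.369 by edgeR.

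Polr1b, the second largest subunit of RNA polymerase I, had the steepest slope. It lay at 34.9 CPM in the low library and between 73.7 and 164.1 CPM in the other 11 ICN libraries, and its slope was 0.69 (SE 0.13, adjusted p = 0.0583 by edgeR, n = 12). Without the low library the slope was 0.44 (adjusted p = 0.51). Gnl3, which encodes the nucleolar GTP-binding protein nucleostemin and shares exons with Pbrm1 on the other strand, lay at 58.4 CPM in the low library and at 107.7 to 286.4 CPM in the others. Its slope was 0.62 (SE 0.15, adjusted p = 0.0854 by edgeR, n = 12) with the low library and 0.50 (adjusted p = 0.545) without. Nop2 lay at 56.2 CPM in the low library and at 98.7 to 225.6 CPM in the others. Its slope was 0.61 (SE 0.15, adjusted p = 0.0873 by edgeR, n = 12) with the low library and 0.23 (adjusted p = 0.78) without. Of these 3 genes, the slope of Nop2 dropped most without that library and that of Gnl3 least.

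With all 12 ICN libraries every role had positive slopes alone, and the median slope was 0.40 for the 4 box C/D genes, 0.36 for the 4 assembly factors, 0.35 for the nucleolar and for the large subunit genes, 0.28 for the small subunit, 0.26 for box H/ACA and 0.25 for Pol I transcription. Without the low library the order of the roles changed: the medians were 0.38 for the nucleolar and 0.28 for the small subunit genes, then 0.18 for Pol I transcription, 0.11 for box H/ACA, 0.08 for the assembly factors and for the large subunit, and -0.01 for box C/D. Of the 10 negative slopes then seen, 5 of 12 were in the large subunit (lowest -0.52, Mrto4), 2 of 4 in box C/D and 1 each in Pol I transcription, box H/ACA and the small subunit. With the low library, the flattest slopes were those of Nufip1 (0.04), an assembly factor of box C/D particles, Pno1 (0.06), Nip7 (0.10), a factor of the large subunit, and Imp4 (0.10), a protein of the U3 particle. In the other genes of the pathway, 99 of 106 slopes were positive with a median of 0.21, and 5 of 8 in further snoRNP genes with a median of 0.11, against 83 of 106 (median 0.12) and 4 of 8 (median 0.02) without the low library. In the first of these lists Nol12 (0.43, adjusted p = 0.0583) and Rrs1 (0.48, adjusted p = 0.075) had the lowest p among positive slopes by edgeR, and Riok3 (-0.47, adjusted p = 0.0601) and Ddx52 (-0.20, adjusted p = 0.243) among negative ones. The 14 cell cycle genes had a median slope of 0.05 with 8 positive, and of -0.09 with 4 positive without the low library.

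The slopes were also set beside the sequence features. The 11 genes with an E-box in the window had a median slope of 0.29 (0.06 to 0.61) and the 36 without one a median of 0.31 (0.04 to 0.69), or 0.15 and 0.14 without the low library. Hosts of small nucleolar RNAs, which are cut from introns, numbered 8 of the 51 and carried 23 annotated snoRNAs (Nop56 5, Nop58 4, Ncl, Gnl3 and Wdr43 3 each, Tsr1 and Ppan 2 each, Dkc1 1). Their median slope was 0.39 (0.18 to 0.62), and that of the 43 other genes 0.29 (0.04 to 0.69), with overlapping ranges. These medians were 0.22 and 0.14 when the low library was left out. These medians describe the genes and were not tested.

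Without ICN, Myc measured 159.1 and 150.4 CPM in Miz1 wt leukaemias, and the deltaPOZ Vav pair had 79.6 and 151.4 CPM. Mean deviations of the 51 genes there were 0.32 and 0.02 with Miz1 wt and -0.02 and -0.12 with deltaPOZ, in the same order of mice. The mouse with 151.4 CPM of Myc was thus the lowest of these 4 in the 51 genes, and 2 of the 3 libraries with more Myc than any ICN library were within 0.12 of the mean. With all 16 libraries and ICN as a term, 4 of the 51 passed (Ppan, Polr1b, Nop56 and Rrp1b, slopes 0.56, 0.71, 0.59 and 0.56), where 0.555% of all genes did. No gene passed there once the low library was left out, a fit chosen after seeing the data, and the median slope of the 51 was 0.12.

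**Figure D2:**
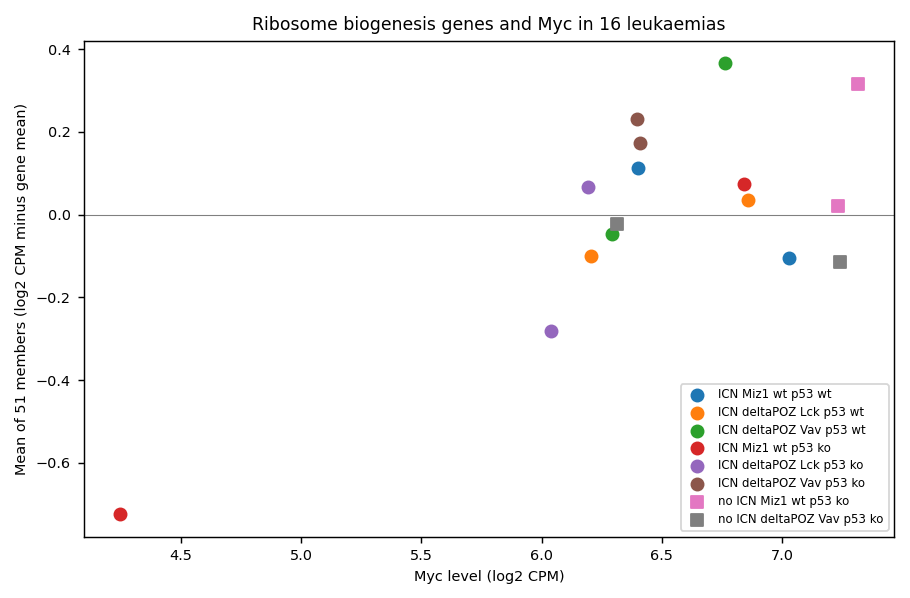
Mean deviation of the 51 genes from their own means (log2 CPM, y axis) against the level of Myc (log2 CPM, x axis), 1 point per mouse, circles with and squares without ICN, coloured by group. The ICN Miz1 wt p53 ko mouse at a Myc level of 4.25 and a mean of -0.72 lies far from the other 15, which span 6.04 to 7.31 in Myc and -0.28 to 0.37 in the mean.

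The design sets deltaPOZ beside Miz1 wt in each background, and the genes were compared accordingly. Averaged over the 3 backgrounds (10 against 6 mice), none of the 51 passed, where 0.0172% of all genes did. The median log2 difference was 0.04 and 36 were positive, against 8723 positive of the 17470 genes tested. Without the low library the median was -0.07 with 15 positive. DESeq2 also called none of the 51. Npm1 had the lowest p (log2 0.30, SE 0.13, unadjusted p = 0.0348, adjusted p = 0.98 by edgeR) and was the only one of the 51 with an unadjusted p under 0.05, where 4.92% of all genes had one (2.94% higher, 1.97% lower). Pes1, a scaffold of large subunit assembly (0.21, SE 0.12), and Ltv1, a late factor of the small subunit (0.24, SE 0.16), followed on the higher side, and Rrn3 (-0.23, SE 0.14), Nolc1 (-0.19, SE 0.20) and Rrp12 (-0.15, SE 0.21) on the lower side, each with an adjusted p of 1. Of the further snoRNP genes 1 of 8 passed: Znhit3, an assembly factor of box C/D particles, had the only call (-1.70, SE 0.21, adjusted p = 0.0323 by edgeR). That call was lost on leaving out any 1 of 11 of the 16 libraries, with adjusted p between 0.0123 and 0.127 and log2 values between -1.82 and -1.63 over all 16 fits. With all 16 libraries DESeq2 called Znhit3 too (-1.70, adjusted p = 2.58e-11), where it called 0.738% of all genes. By background Znhit3 differed by -3.16 without ICN (SE 0.43, adjusted p = 0.0598 by edgeR). It differed by -1.03 in ICN p53 wt and by -0.92 in ICN p53 ko leukaemias (adjusted p of 1 in both). Among the 106 other biogenesis genes none passed, with a median of 0.03, and Diexf, a small subunit factor, had the lowest p (-0.40, SE 0.13, adjusted p = 0.814).

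Npm1 was measured at 1147 and 1305 CPM with Miz1 wt, ICN and p53 wt, against 1344 and 1678 CPM with Lck and 1937 and 1559 CPM with Vav. All 4 deltaPOZ mice lay above both Miz1 wt mice there, and the difference was 0.41 (SE 0.21, adjusted p = 1 by edgeR). With ICN and p53 ko it was measured at 1006 and 1297 CPM with Miz1 wt, against 1209 and 1237 CPM with Lck and 1470 and 1732 CPM with Vav. Here the Lck mice fell between both Miz1 wt mice and the Vav mice above them. Without ICN the Miz1 wt pair had 1278 and 1060 CPM and the deltaPOZ Vav pair 1591 and 1138 CPM, so the groups overlapped.

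In ICN leukaemias with p53 wt (4 deltaPOZ against 2 Miz1 wt mice) none of the 51 passed, where 0.0% of all genes passed, and none had an unadjusted p under 0.05, where 1.87% of all genes had one (0.59% higher, 1.28% lower). DESeq2 called none either. The median difference was 0.06, with 35 positive, against a median of 0.002 over all genes with 50.2% positive. It was -0.07 without replicate 1 of the Miz1 wt pair and -0.08 without replicate 1 of the Vav pair. The 4 box H/ACA genes were all positive (0.17 to 0.32, median 0.25), among them Nhp2 (0.32, SE 0.25) and Nop10 (0.30, SE 0.23). All 6 nucleolar genes were positive as well (0.02 to 0.41), while large subunit factors divided evenly (6 of 12 positive). The lowest p on the lower side belonged to Wdr12 (-0.19, SE 0.18), Imp4 (-0.17, SE 0.18) and Nob1 (-0.19, SE 0.23), the nuclease that cuts the end of small subunit RNA.

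In ICN leukaemias without p53 (4 against 2 mice) none of the 51 passed, where 0.00572% of all genes did, yet all 51 differences were positive, with a median of 0.30 against -0.01 over all genes. None of the 51 had an unadjusted p under 0.05, where 3.78% of all genes had one (1.59% higher, 2.19% lower), and DESeq2 called none. Pes1 (0.42, SE 0.20), Wdr43, a factor of early small subunit assembly (0.42, SE 0.21), and Gnl3 (0.59, SE 0.33) had the lowest p, each with an adjusted p of 1 by edgeR. Box C/D genes had the largest median (0.48) and small subunit and Pol I genes the smallest (both 0.21). The direction rested on the low library: without it 22 of 51 were positive with a median of -0.04, and without replicate 2 of the same pair 50 were positive with a median of 0.79. B cell markers summed to 193.3 and 241.1 CPM in the 2 Miz1 wt mice and to 687.5 to 1472 CPM in the 4 deltaPOZ mice, and their part in the differences was not tested.

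Pes1 and Gnl3 show the arrangement of the mice. Pes1 had 97.5 and 137.3 CPM in the Miz1 wt pair, then 154.0 and 130.6 CPM with Lck and 160.8 and 184.7 CPM with Vav. Replicate 2 of the Miz1 wt pair thus lay within the range of the deltaPOZ mice and replicate 1 below all of them. For Gnl3 the values were 58.4 and 140.1 CPM with Miz1 wt, 136.3 and 107.7 CPM with Lck and 177.6 and 187.9 CPM with Vav, in the same arrangement.

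The difference between both p53 backgrounds in the effect of deltaPOZ was tested itself. None of the 51 passed, where 0.0% of all genes passed, none had an unadjusted p under 0.05, where 2.6% of all genes had one (1.32% higher, 1.28% lower), and DESeq2 called none. The median of the differences (p53 ko minus p53 wt) was 0.22 with 48 positive, and without the low library it was -0.06 with 16 positive. Over all genes tested it was -0.003 with 49.7% positive. Wdr12 (0.42, SE 0.26), Znhit6 (0.64, SE 0.42) and Imp4 (0.38, SE 0.26) had the lowest p on the positive side. The 3 negative ones were Npm1 (-0.12, SE 0.29), Nufip1 (-0.10, SE 0.33) and Ubtf (-0.01, SE 0.40), which encodes the factor that binds ribosomal DNA promoters.

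In p53 ko leukaemias that lack ICN, 2 mice of the deltaPOZ Vav group were set against 2 of the Miz1 wt group. None of the 51 passed, where 0.0% of all genes passed. The median was -0.23 and 38 were negative, against a median of 0.005 over all genes with 50.4% positive. An unadjusted p under 0.05 was found for 3, all lower, where 7.68% of all genes had one (4.63% higher, 3.05% lower). DESeq2 called none of the 51. Rrn3, which brings RNA polymerase I to the ribosomal DNA promoter and carries the 2 E-boxes printed above, had 266.3 and 135.1 CPM in the Miz1 wt mice, against 101.6 and 105.8 CPM in the deltaPOZ mice. Both deltaPOZ values lay below both Miz1 wt values and were the lowest of all 16 libraries (log2 -0.95, SE 0.27, unadjusted p = 0.00435, adjusted p = 0.417 by edgeR). Nolc1, a nucleolar chaperone of snoRNPs, lay at 322.4 and 216.5 against 113.9 and 159.9 CPM (-0.98, SE 0.38, adjusted p = 0.571). Noc3l, a factor of large subunit transport, lay at 73.2 and 36.8 against 25.8 and 33.7 CPM (-0.89, SE 0.40, adjusted p = 0.642).

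In each of these 3 genes replicate 1 of the Miz1 wt pair was the highest of the 4 mice by a wide margin, and Noc3l in the other Miz1 wt mouse lay close to the deltaPOZ mice. Rrn3 lies on chromosome 16, whose 549 genes tested had a median of -0.36 here, the lowest of 20 chromosomes, with 29.7% positive. Nolc1 and Noc3l lie on chromosome 19, the next lowest, with a median of -0.34 over 558 genes and 29.0% positive. The part of the chromosome in these differences was not tested. Without replicate 1 of Miz1 wt the median was -0.08 with 22 positive. Without replicate 2 it was -0.32, and Rrn3 passed (-1.38, adjusted p = 0.0356), where 0.174% of all genes did. All 4 Pol I genes and all 4 assembly factors were negative in this comparison (medians -0.40 and -0.32), while 3 of 6 nucleolar genes were positive. Higher with deltaPOZ, without passing, were Imp4 (0.23, SE 0.21), Npm1 (0.22, SE 0.24) and Ddx10 (0.15, SE 0.17). Of the other biogenesis genes 82 of 106 were negative (median -0.15), with the lowest p for Diexf (-1.08, SE 0.24, adjusted p = 0.26).

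**Figure D3:**
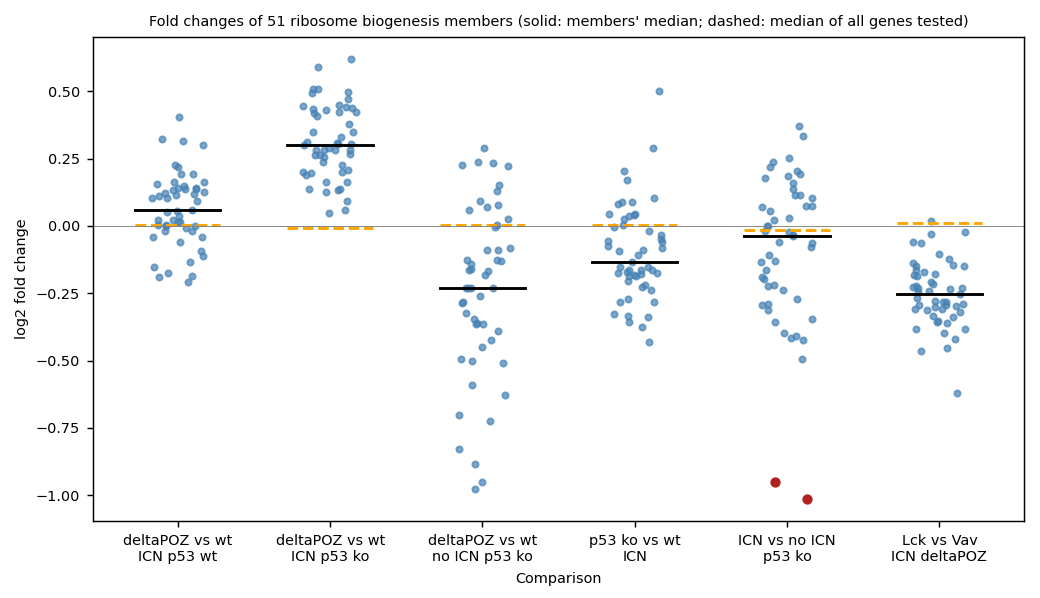
Log2 fold change of each of the 51 genes (points) in 6 comparisons, with the median of the 51 (solid black line) and of all 17470 genes tested (dashed line). Red points are Ddx18 and Bop1, the only genes with an adjusted p under 0.05, and all 51 points of deltaPOZ against Miz1 wt in ICN p53 ko mice lie above 0.

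The p53 genotypes were compared among ICN leukaemias (6 against 6 mice), with the same libraries as above. None of the 51 passed, where 0.195% of all genes did. The median difference was -0.13, with 37 lower in p53 ko, and without the low library -0.02, with 27 lower. Over all genes tested the median was 0.004 with 50.4% positive. An unadjusted p under 0.05 was found for 4 lower genes, against 6.83% of all genes, and for 1 higher gene, against 8.65%. Neutrophil markers summed to 53.2 to 909.3 CPM in p53 wt mice, and in p53 ko mice to 50.5 CPM in 1 and to 551.3 to 9078 CPM in the other 5. Macrophage markers summed to 122.5 to 265.4 CPM in p53 wt and to 220.4 to 1491 CPM in p53 ko mice, and the part of these cells in the differences was not tested. DESeq2 called 1 of the 51, Ddx10, where it called 6.23% of all genes.

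Ddx10, a helicase of the small subunit, lay at 111.6 CPM in the lowest, 113.0 in the median and 130.7 in the highest p53 wt mouse, and at 83.8, 89.98 and 101.5 CPM in p53 ko mice. The groups did not overlap (log2 -0.34, SE 0.10, unadjusted p = 0.0057, adjusted p = 0.152 by edgeR and 0.0168 by DESeq2). Wdr12 lay at 148.5, 168.9 and 203.8 CPM in p53 wt and at 110.2, 133.9 and 150.7 CPM in p53 ko mice, with a small overlap (-0.36, SE 0.12, adjusted p = 0.202 by edgeR). Ncl lay at 933.3, 1136 and 1374 CPM in p53 wt and at 773.0, 803.5 and 994.0 CPM in p53 ko mice, also overlapping (-0.43, SE 0.19, adjusted p = 0.299). These 3 genes were among the 4 whose level followed the other members least.

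On the higher side stood Mrto4, which acts in assembly of the ribosomal stalk, Ebna1bp2, a large subunit factor, and Imp4. Mrto4 lay at 58.8, 77.9 and 87.7 CPM in the lowest, median and highest p53 wt mouse and at 60.2, 107.9 and 169.5 CPM in p53 ko mice, so that the ranges overlapped (0.50, SE 0.23, unadjusted p = 0.0475, adjusted p = 0.315 by edgeR). Ebna1bp2 differed by 0.29 (SE 0.16) and Imp4 by 0.20 (SE 0.12). Mrto4 and Ebna1bp2 both lie on chromosome 4, whose 1124 genes tested had a median difference of 0.21, the highest of 20 chromosomes, with 70.7% positive. The part of the chromosome in these differences was not tested. All 6 nucleolar genes and all 4 box C/D genes were lower in p53 ko without passing, while 13 of the 14 cell cycle genes were higher without passing. Of the other biogenesis genes 70 of 106 were lower, with the lowest p for Taf1d (-0.52, SE 0.16, adjusted p = 0.161).

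Leukaemias with and without ICN were compared on p53 ko, over the Miz1 wt and deltaPOZ Vav groups (4 against 4 mice). Ddx18 and Bop1, both factors of the large subunit, fell with ICN, and they were the only 2 of the 51 (3.92%) that passed, where 24.0% of all genes passed and 11.1% were lower. The median difference over the 51 was -0.04, with 20 positive, against -0.01 over all genes.

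Ddx18, a helicase, had 27.3 and 58.6 CPM in the Miz1 wt pair with ICN and 55.7 and 62.7 CPM in the Vav pair with ICN, against 151.7 and 68.2 CPM in Miz1 wt and 71.3 and 101.6 CPM in Vav mice without ICN. All 4 ICN mice lay below all 4 mice without ICN (log2 -0.95, SE 0.28, adjusted p = 0.0315 by edgeR). Bop1 had 41.8 and 125.4 CPM in the Miz1 wt pair with ICN and 127.2 and 138.7 CPM in the Vav pair with ICN, against 281.9 and 226.8 CPM in Miz1 wt and 144.3 and 213.4 CPM in Vav mice without ICN. Again the groups did not overlap, with the closest pair at 138.7 and 144.3 CPM (-1.02, SE 0.31, adjusted p = 0.0342 by edgeR).

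Both calls were lost on leaving out any of 5 libraries: replicate 1 of no ICN Miz1 wt, replicate 2 of no ICN Vav, the low library, or either ICN Vav p53 ko mouse. Without the low library Ddx18 differed by -0.72 (adjusted p = 0.0956) and Bop1 by -0.72 (adjusted p = 0.0655), and the median over the 51 was 0.12. That fit called 16.1% of all genes. Without the partner of the low library 7 of the 51 passed (13.7%), all lower, where 19.3% of all genes did. Bop1 lies on chromosome 15, as Myc does, and the 632 genes tested there had a median of -0.61, the lowest of 20 chromosomes, with 22.3% positive. Myc differed by -0.83 (SE 0.43, adjusted p = 0.185). The erythroid, neutrophil and B cell markers given above differed between these groups as well. Ddx18 lies on chromosome 1, whose 1109 genes tested had a median of -0.04 with 47.6% positive. The part of the chromosome and of other cells in the 2 calls was not tested.

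**Figure D4:**
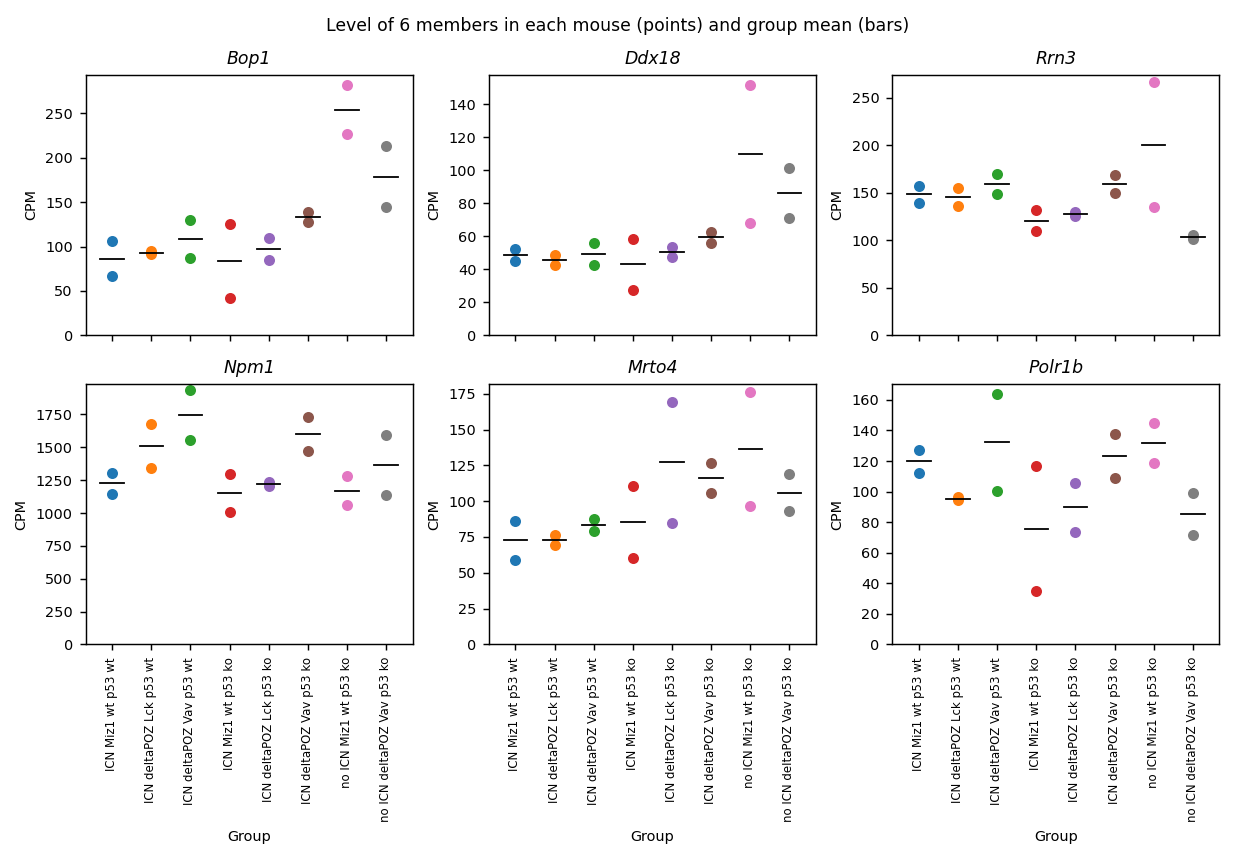
CPM of Bop1, Ddx18, Rrn3, Npm1, Mrto4 and Polr1b in each mouse (points) with the mean of each group of 2 (bars). In Bop1 the 4 mice without ICN lie between 144.3 and 281.9 CPM and the 12 with ICN between 41.8 and 138.7 CPM.

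Pes1, the partner of Bop1, differed by -0.41 (SE 0.16, adjusted p = 0.0832 by edgeR). Higher with ICN, without passing, were Ddx21, a helicase of the nucleolus (0.34, SE 0.22), Noc3l (0.37, SE 0.28) and Nip7 (0.19, SE 0.15). All 4 box C/D genes were lower (-0.40 to -0.06) without passing, and box H/ACA genes lay between -0.02 and 0.24. Of the other biogenesis genes 9 of 106 passed (8.49%), 6 lower and 3 higher, where 24.0% of all genes passed. Diexf fell most (-1.83, SE 0.18, adjusted p = 6.77e-05), and Surf6 (-0.86), Ngdn (-0.79), Rrp7a (-0.67), Utp23 (-0.61) and Urb2 (-0.48) fell too. Riok3 (0.90), a kinase of the small subunit, Lsg1 (0.51), a GTPase of large subunit export, and Nsa2 (0.39) rose. None of the 8 further snoRNP genes passed by edgeR, and 1 had an unadjusted p under 0.05, where 37.4% of all genes had one.

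The Lck and Vav deltaPOZ leukaemias were compared among ICN mice (4 against 4), with libraries used above. None of the 51 passed, where 0.0% of all genes passed, and DESeq2 called none. In 50 of the 51 the level was lower with Lck, with a median of -0.25 against 0.01 over all genes. Leaving out single libraries gave medians from -0.37 to -0.14. The mice overlapped in the mean deviation of the 51 genes, with -0.10, 0.04, 0.07 and -0.28 for Lck. For Vav it was 0.37, -0.05, 0.23 and 0.17. Only Gnl3 had an unadjusted p under 0.05, where 3.15% of all genes did (2.15% higher, 1.0% lower). Gnl3 lay at 134.6, 141.5, 136.3 and 107.7 CPM with Lck and at 286.4, 148.8, 177.6 and 187.9 CPM with Vav. All 4 Lck mice lay below all 4 Vav mice (log2 -0.62, SE 0.27, unadjusted p = 0.0386, adjusted p = 1 by edgeR).

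Nufip1 (-0.42, SE 0.19) and Tsr1, a GTPase-like factor of the small subunit (-0.38, SE 0.19), followed, and the single positive value was that of Ncl (0.02, SE 0.23). The median was lowest for the assembly factors (-0.37) and nearest to 0 for box C/D genes (-0.21). Of the other biogenesis genes 101 of 106 were lower, with a median of -0.22 and none past the test. Neutrophil markers summed to 277.9, 148.4, 9078 and 6501 CPM with Lck and to 431.9, 110.4, 551.3 and 1581 CPM with Vav, and macrophage markers to 213.3, 122.5, 1491 and 1065 CPM with Lck and to 265.4, 257.9, 220.4 and 294.4 CPM with Vav. Their part in the differences was not tested.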

How the data were processed

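RNA of 16 mouse leukaemias was sequenced from libraries of a stranded TruSeq kit, per the labels' protocols. The authors deposited raw read counts per Ensembl gene, 1 table for each mouse. The submitters' processing notes name TopHat2 2.0.10, SAMtools, HTSeq and DESeq, with annotation release and strand setting not given in the sources used here. Each table closes with 5 totals that name no gene, and these were left out: genes took 20.6% to 39.6% of all alignments counted and non-unique ones 45.8% to 63.7%. No 2 libraries were identical. Of 41214 gene IDs, 40340 matched GENCODE M21.

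Counts were tested in R 4.3.3 with the quasi-likelihood F test of edgeR 4.0.16 (limma 3.58.1), TMM factors of 0.952 to 1.05, a minimum count of 10 in filterByExpr, 1 mean per group over all 16 libraries (8 residual degrees of freedom, common dispersion 0.208) and Benjamini-Hochberg adjustment over all 17470 genes, with a threshold of 0.05. Standard errors are the size of the log2 change divided by the root of F. Log2 CPM used a prior count of 2. Slopes on Myc used the 12 ICN libraries with no term for genotype, and groups as a factor or ICN as a term were alternatives. DESeq2 1.42.0, its size factors, no filter, fewer libraries and centring were alternatives.

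Genes named are those past the threshold, or else the 3 with the lowest p in each direction, the extremes of level, correlation and slope, and the same for other pathway genes. The members and lists were chosen with earlier results of these data known. In a test on simulated data of the ICN comparison (17063 genes), 17 of 100 genes changed by 1 on the log2 scale and 53 of 100 changed by 2 were called. For deltaPOZ against Miz1 wt in ICN p53 wt leukaemias only 2 and 37 of 100 were called. These counts were 14 and 58 for Lck against Vav, 27 and 66 for the p53 genotypes and 47 and 77 for the slopes on Myc.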

Additional observations from a re-analysis of the deposited data

How the results depend on the processing

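Without a filter on low counts, 1 of the 51 genes passed in deltaPOZ against Miz1 wt without ICN (Nolc1, -0.99, adjusted p = 0.0455, with 2.48% of all genes) and 1 in the slopes on Myc (Polr1b, with 0.341%). DESeq2 called 1 gene between p53 genotypes (6.23% of all genes) and 26 in the slopes on Myc (6.8%), and the fit over 16 libraries with ICN as a term called 4 (0.555%). Leaving out single libraries gave 0 to 1 calls in deltaPOZ against Miz1 wt without ICN, 0 to 7 in ICN against no ICN and 0 to 19 in the slopes on Myc. The 7 were reached without replicate 2 of ICN Miz1 wt p53 ko (19.3% of all genes) and the 19 without replicate 1 of the p53 wt Miz1 wt pair (3.63%). Polr1b alone passed in the slopes without replicate 2 of ICN Lck p53 wt (0.174%) or replicate 1 of ICN Vav p53 ko (0.422%). In ICN against no ICN, Ddx18 alone passed without replicate 1 of ICN Lck p53 wt (19.1%). On leaving out single libraries the median over the 51 genes ran from -0.036 to 0.785 for deltaPOZ in ICN p53 ko, from -0.057 to 0.68 for the difference between p53 backgrounds and from -0.347 to 0.12 for ICN against no ICN. The 2 libraries farthest in Myc were replicate 1 of ICN Miz1 wt p53 ko and replicate 1 of ICN Miz1 wt p53 wt. Without them, 50 slopes were positive with a median of 0.40. The cause of these shifts was not tested. No paired analysis was run, because each library came from a separate mouse and the labels pair none of them. The labels give no replicate numbers, and those used here follow the order of the samples in each group.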
